A study of Rattus norvegicus with 9 samples.

Results

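The Zfp genes are the rat genes whose platform symbol is Zfp followed by a digit, a naming family of zinc finger proteins. On 9 single-colour oligonucleotide arrays of rat thalamus, 341 probe sets carried 1 such symbol and stood for 220 genes, out of 14217 named genes and 31042 rat probe sets. No difference between the diets was used to choose the genes. Where a gene had several probe sets, its value was chosen by the mean over the 9 arrays, the probe set of highest mean standing for the gene. The family was, however, proposed with results of these data known, so its counts are descriptions and no test of the family as a whole is given.

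The arrays came from male Wistar rats that were 3 weeks old at the start and are labelled 5 weeks old at sampling. All rats first ate powdered feed for 2 days, then solid chow (4 arrays) or powdered feed (5 arrays) for 8 days, so the chow rats had also eaten powder. No transgene, gene deletion or drug is named for either group. The comparison asked whether chewing after weaning changes gene expression in the thalamus, the relay between sense organs, brainstem and cortex. The labels speak of 10 rats and do not state which animal each array came from, so p-values measure the spread between these arrays, part of which may be technical.

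Most zinc finger proteins of this family hold fingers in which paired cysteines and histidines grip a zinc ion, and a row of such fingers reads a DNA sequence. Many also carry a KRAB domain, which binds the co-repressor Trim28, and Trim28 in turn brings the histone methyltransferase Setdb1 and heterochromatin proteins to the site. Other members carry different fingers and act on RNA, ubiquitin or SUMO, so a shared symbol does not mean a shared task.

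Values are log2 expression values as deposited, and differences are chow minus powder from limma with its standard error (SE). A gene was called when its p-value, adjusted over all 14217 genes by Benjamini-Hochberg, was under 0.05. The deposited values of most genes were compressed to almost nothing between arrays. Of the 220 Zfp genes, 183 (83.2%) spanned less than 0.01 log2 units from the lowest to the highest array, with a median span of 0.000474, against 83.0% of all genes. The other 37 had spans of 0.0193 to 0.564 with a median of 0.339. At the edge of that limit stood Zfp532, with a span of 0.00566, just outside, and Zfp280d, with a span of 0.0193, just inside. A gene with a large difference between diets spans more and so passes such a limit more easily, and counts over the 37 genes are given as descriptions for that reason.

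**Figure D1:**
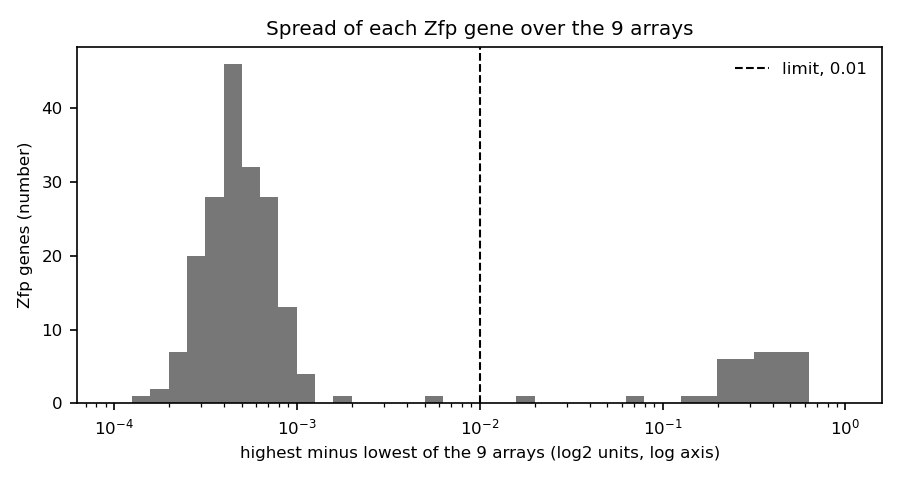
Number of Zfp genes (vertical axis) by the highest minus the lowest of the 9 array values (horizontal axis, log2 units on a log axis); the dashed line is the limit of 0.01. The 183 compressed genes lie left of the line and the 37 others right of it, with few genes near it.

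Among these 37 Zfp genes, 24 fell under chow and 4 rose, and 9 were not called. That is 64.9% lower and 10.8% higher, where 40.2% and 9.03% of all 2414 genes spanning at least 0.01 were called lower and higher (49.3% in either direction). Their median difference was -0.17, against -0.12 over all such genes. For 22 of the genes that fell, every chow array lay below every powder array, and for 3 of those that rose every chow array lay above. Over all genes spanning at least 0.01, the chow arrays lay below for 37.9% and above for 8.29%. The genes that fell did so by modest amounts, from -0.37 (0.773-fold) to -0.011, with a median of -0.20.

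**Figure D2:**
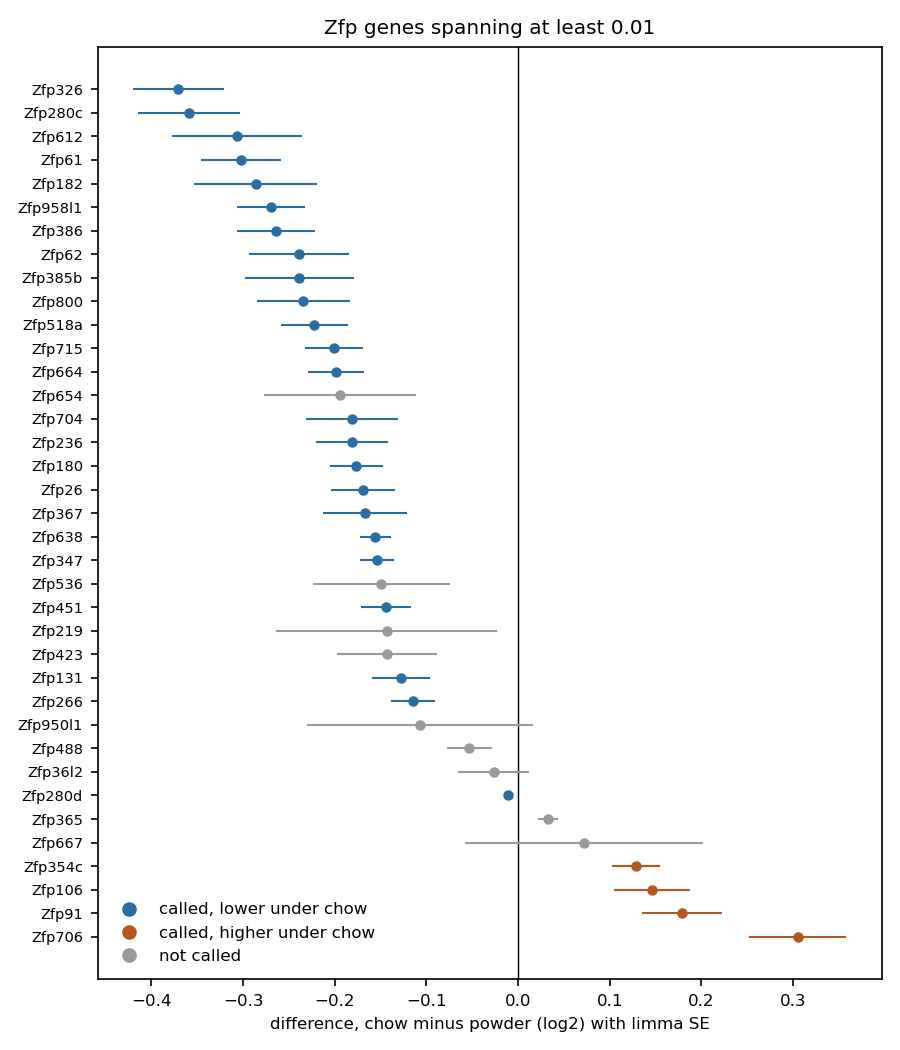
Difference between diets (horizontal axis, log2, chow minus powder, bars are limma SE) for each of the 37 Zfp genes spanning at least 0.01 (vertical axis), coloured by call. The 24 genes called lower run from Zfp326 at -0.37 to Zfp280d at -0.011, and the 4 called higher are Zfp354c, Zfp106, Zfp91 and Zfp706.

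Promoters of genes with the largest called differences in each direction are shown as a description. These genes were chosen by their differences, so their agreement across arrays follows from the choice. Shared control was not tested. Zfp280c (-0.36), Zfp706 (0.31) and Zfp354c (0.13) had no promoter entry and are not shown. Printed are the 150 bases before the annotated start, 5′ to 3′ on the gene's strand, for the genes of a called, non-overlapping difference that had an entry in the RefSeq table of build GRCr8 (183 of 220 Zfp genes had one, and the first listed start was taken). Capitals mark matches on either strand. The letters searched were those of the GC box, GGGCGG, which Sp factors read. The box of the factor NF-Y was searched as CCAAT. The TATA box, where initiation complexes form, was searched as TATAAA. The E-box of basic helix-loop-helix factors was CACGTG. The core that ETS factors bind was CCGGAAG. The cAMP response element was TGACGTCA, and the core of the site read by Zfp143 was ACTACAA. Zfp326 (chr14:4285260-4285409, minus strand), Zfp612 (chr19:54963293-54963442, plus strand), Zfp61 (chr1:88985660-88985809, minus strand) and Zfp182 (chrX:3480841-3480990, plus strand) fell under chow, and Zfp91 (chr1:219352419-219352568, minus strand) rose.
Zfp326: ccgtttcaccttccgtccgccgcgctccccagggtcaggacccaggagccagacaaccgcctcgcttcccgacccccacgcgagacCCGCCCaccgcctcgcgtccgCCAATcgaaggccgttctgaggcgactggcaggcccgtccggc
Zfp612: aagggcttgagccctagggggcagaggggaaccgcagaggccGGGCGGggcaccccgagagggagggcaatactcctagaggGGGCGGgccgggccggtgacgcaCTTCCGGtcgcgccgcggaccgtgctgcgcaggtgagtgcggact
Zfp61: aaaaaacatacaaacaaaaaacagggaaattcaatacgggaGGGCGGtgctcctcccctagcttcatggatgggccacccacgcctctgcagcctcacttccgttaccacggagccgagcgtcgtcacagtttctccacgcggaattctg
Zfp182: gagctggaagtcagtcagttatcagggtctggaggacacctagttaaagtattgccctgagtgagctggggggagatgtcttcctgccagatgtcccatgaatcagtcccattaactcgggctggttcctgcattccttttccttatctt
Zfp91: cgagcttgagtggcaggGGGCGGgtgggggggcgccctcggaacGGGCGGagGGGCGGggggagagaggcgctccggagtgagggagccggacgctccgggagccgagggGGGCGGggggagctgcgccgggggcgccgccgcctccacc
The stretch before Zfp91 holds 4 GC boxes, that before Zfp326 a GC box and a CCAAT box, and that before Zfp182 none of the letters searched. Over the 250 bases before the start, 10 of 21 promoters of the genes that fell (47.6%) held a GC box, against 43.2% of the 183 Zfp promoters and 54.2% of 11734 promoters of genes on the array. A CCAAT box stood in 10 of the 21 (47.6%), in 42.1% of Zfp promoters and in 35.1% of all. The Zfp143 core stood in 7.65% of Zfp promoters and 3.54% of all, and the E-box in 7.10% and 7.82%. Median GC content was 55.6% over the Zfp promoters and 59.2% over all. These are matches of letters and not sites shown to be bound.

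A list of members linked to RNA, ribosomes, ubiquitin, SUMO or the spindle held the largest differences in both directions. These were Zfp326 and Zfp706, over the probe sets that represent the genes. This and the other lists of members were drawn up with earlier results of these data known, so their counts are descriptions. Of the 16 measured genes on the list, 7 spanned at least 0.01. All 7 were called, 3 higher and 4 lower, where 49.3% of all genes of that span were called. The counts were also 3 and 4 after either rescaling. Another 3 compressed genes were called lower, which makes 3 higher and 7 lower of 16, where 14.2% and 18.8% of all genes were called higher and lower. Over all 16 the counts became 11 higher against 4 lower by quantile normalization and 12 against 4 by subtracted medians. All genes moved the same way, from 2015 higher to 8329 and 12112 of 14217. Zfp326 encodes a subunit of the DBIRD complex, which couples elongation by RNA polymerase to splicing. Zfp326 read 8.89, 8.79, 8.73 and 8.91 on the chow arrays and 9.11, 9.27, 9.19, 9.27 and 9.15 on the powder arrays. All chow arrays were low and all powder arrays high, with a wide gap between them, and the difference was -0.37 ± 0.049 (adjusted p = 0.00353, limma).

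Zfp638 encodes a nuclear RNA-binding protein that takes part in silencing of foreign DNA and in fat cell differentiation. Zfp638 read 9.40, 9.34, 9.33 and 9.35 under chow and 9.53, 9.50, 9.54, 9.49 and 9.49 under powder. The arrays of each diet lay close together and apart from the others, so that a small difference, -0.16 ± 0.017, had the lowest adjusted p of the 37 genes (0.00222, limma). Zfp451, a SUMO ligase, read 7.69, 7.70, 7.61 and 7.76 under chow and 7.82, 7.83, 7.86, 7.85 and 7.81 under powder. Its groups did not overlap either (-0.14 ± 0.027, adjusted p = 0.00931, limma). Zfp385b, whose fingers are of the kind that binds double-stranded RNA, read 7.51, 7.45, 7.73 and 7.53 under chow and 7.83, 7.76, 7.76, 7.73 and 7.88 under powder. Chow 3 almost reached the lowest powder array, and the call (-0.24 ± 0.060, adjusted p = 0.0223, limma) was lost without chow 1, chow 2, chow 4 or powder 1, with adjusted p from 0.0511 to 0.0563. By the median over each gene's probe sets, Zfp638 was at 4.5e-05, Zfp385b at -0.0001 and Zfp451 at -0.012, none of them called.

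Zfp706, a short zinc finger protein known from embryonic stem cells as a repressor of Klf4, had the largest increase among the representing probe sets. It counts among the listed genes called higher, although this role lies outside RNA, ubiquitin and SUMO. Zfp706 read 9.80, 9.66, 9.88 and 9.63 under chow and 9.45, 9.41, 9.43, 9.50 and 9.41 under powder. Every chow array was above every powder array, at 0.31 ± 0.053 (1.24-fold, adjusted p = 0.00733, limma).

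Zfp91 encodes a ubiquitin ligase that acts on the kinase NIK. Zfp91 read 9.94, 10.1, 9.90 and 9.88 under chow and 9.78, 9.78, 9.77, 9.76 and 9.80 under powder. Chow 2 stood highest and all chow arrays lay above the tight powder group (0.18 ± 0.044, adjusted p = 0.0204, limma). Zfp106 encodes an RNA-binding protein needed by motor neurons. On its representing probe set the gene rose, while another probe set was called lower, as given below. Zfp106 read 9.47, 9.60, 9.61 and 9.55 under chow and 9.41, 9.33, 9.37, 9.46 and 9.48 under powder. Chow 1 fell among the powder arrays, and the call (0.15 ± 0.041, adjusted p = 0.0322, limma) was lost without any 1 of chow 2, 3 or 4 or powder 1, 2 or 3, with adjusted p from 0.0572 to 0.0784. Zfp622, which acts in ribosome assembly, Zfp318 and Zfp207 were compressed on their representing probe sets and called lower. Their differences were -0.000233, -0.000329 and -0.000192. Zfp598, a sensor of collided ribosomes, was compressed and not called. Another probe set of Zfp207 was at -0.35, as given below.

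**Figure D3:**
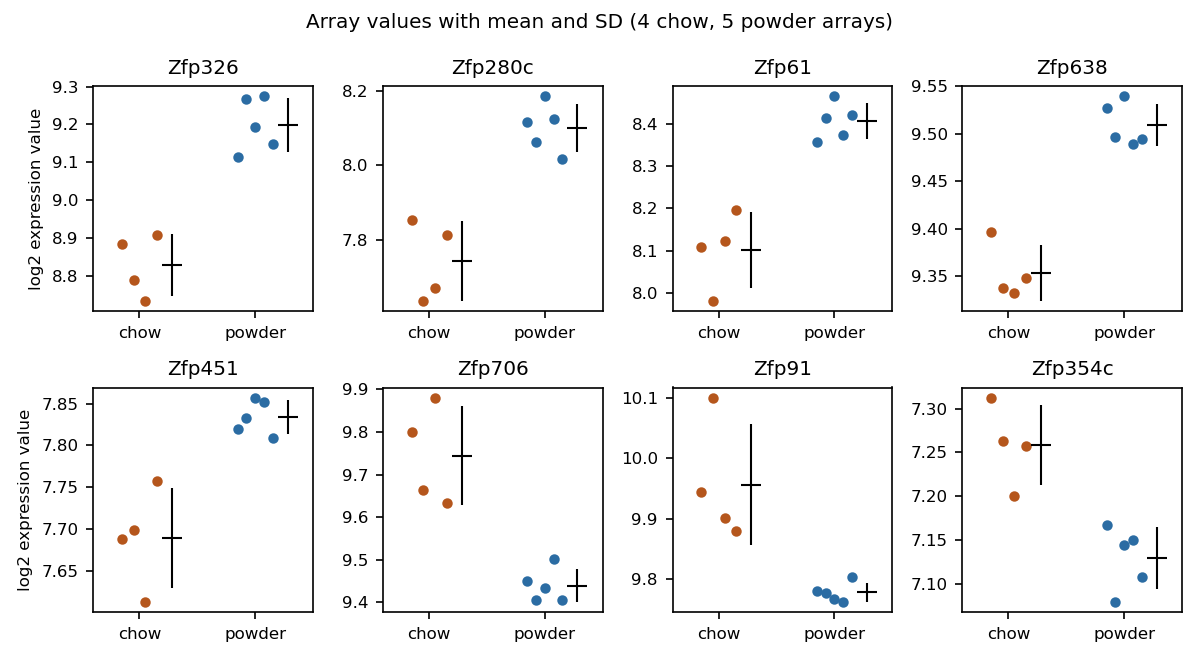
Log2 expression value (vertical axes, which differ between panels and do not start at 0) on each chow and powder array for 8 Zfp genes; points are arrays, and the horizontal and vertical black lines are the mean and SD of 4 chow or 5 powder arrays. In every panel the chow points lie on one side of the powder points, below for Zfp326, Zfp280c, Zfp61, Zfp638 and Zfp451 and above for Zfp706, Zfp91 and Zfp354c.

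Zinc finger genes that fell and whose role is not described here made up most of the decreases. Zfp280c read 7.85, 7.63, 7.67 and 7.81 under chow and 8.12, 8.06, 8.19, 8.12 and 8.02 under powder. Its chow arrays were all low, at -0.36 ± 0.056 (0.780-fold, adjusted p = 0.00534, limma). Zfp612 read 8.94, 8.71, 8.76 and 9.03 under chow and 9.22, 9.12, 9.19, 9.23 and 9.07 under powder. Chow 4 came close to powder 5 without crossing it (-0.31 ± 0.071, adjusted p = 0.0175, limma).

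Zfp61 read 8.11, 7.98, 8.12 and 8.20 under chow and 8.36, 8.41, 8.46, 8.37 and 8.42 under powder. Chow 2 was the lowest array and the groups were well apart (-0.30 ± 0.043, adjusted p = 0.00431, limma). Zfp182 read 7.79, 7.58, 7.71 and 7.88 under chow and 8.04, 8.05, 8.14, 7.95 and 7.96 under powder. Here the chow arrays were more spread, and the difference was -0.29 ± 0.067 (adjusted p = 0.0181, limma).

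Zfp958l1 (-0.27), Zfp386 (-0.26), Zfp62 (-0.24), Zfp800 (-0.23), Zfp518a (-0.22), Zfp715 (-0.20), Zfp664 (-0.20), Zfp236 (-0.18) and Zfp180 (-0.18) also fell with groups that did not overlap. Their adjusted p in limma ran from 0.00378 to 0.0165. Below these in size were Zfp26 (-0.17), Zfp347 (-0.15), Zfp131 (-0.13) and Zfp266 (-0.11), each with groups apart, and Zfp704 (-0.18) and Zfp367 (-0.17), whose groups overlapped. The last 6 are named after their values had been seen. Zfp131 was not called without chow 1 (adjusted p = 0.0503). Zfp704 was not called without any 1 of 7 arrays, chow 2, 3 and 4 and powder 2, 3, 4 and 5, and Zfp367 without any 1 of 6, chow 1 and 2 and powder 1, 2, 3 and 5. Of the 28 called genes spanning at least 0.01, 23 stayed called without each array in turn, 20 lower and 3 higher. The 5 lost were Zfp131, Zfp367, Zfp704, Zfp385b and Zfp106.

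Zfp354c, a KRAB zinc finger repressor, rose. Zfp354c read 7.31, 7.26, 7.20 and 7.26 under chow and 7.17, 7.08, 7.14, 7.15 and 7.11 under powder. Chow 3 was the nearest to the powder arrays and still above them (0.13 ± 0.026, adjusted p = 0.012, limma). It belonged to a list of 12 measured genes with roles in co-repression, stress or metabolism, of which 2 were called higher and 1 lower, beside 14.2% and 18.8% of all genes, and 9 were not called. Quantile normalization gave 11 higher and 0 lower there, and subtracted medians 12 and 0, where 8329 and 12112 of all 14217 genes were higher. The other limma calls on the list were compressed, Zfp592 at 0.000255 and Zfp110, an interactor of the p75 neurotrophin receptor, at -0.000321.

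Members known from neural and glial development showed few sizeable differences on the probe sets that represent them. Other probe sets of Zfp462 (-0.23) and Zfp292 (0.24 and -0.24) were called, as given below. Of 13 measured genes, 6 were called lower and 0 higher by limma, beside 18.8% and 14.2% of all genes. Of these 6, 5 were compressed. At an unadjusted p under 0.05 there were 7 and 1, beside 3636 and 3015 of all 14217 genes. The direction turned with scaling, to 9 higher against 0 lower by quantile normalization and 9 against 1 by subtracted medians. It did so over all genes too, with 8329 and 12112 called higher. Zfp423, a partner of Ebf factors in cerebellar development, read 9.90, 10.1, 10.2 and 10.1 under chow and 10.2, 10.2, 10.2, 10.3 and 10.2 under powder. Chow 1 was the lowest and chow 3 lay among the powder arrays, so the difference of -0.14 ± 0.055 was not called (adjusted p = 0.0803, limma). Without chow 3 it was -0.19 and called (adjusted p = 0.0314). Zfp536, which restrains neuronal differentiation, read 8.81, 8.78, 8.74 and 9.04 under chow and 8.98, 8.96, 9.02, 8.87 and 9.14 under powder. Chow 4 overlapped the powder group (-0.15 ± 0.075, adjusted p = 0.157, limma), and without it the difference was -0.21 and called (adjusted p = 0.0396).

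Zfp488, a partner of Olig2 in oligodendrocytes, read 8.12, 8.17, 8.19 and 8.23 under chow and 8.24, 8.22, 8.22, 8.19 and 8.27 under powder. The groups overlapped (-0.053 ± 0.024, adjusted p = 0.126, limma). Zfp365, a centrosomal partner of Disc1, was at 0.033 ± 0.011 (adjusted p = 0.0533, limma), and it was called without chow 4 (adjusted p = 0.0334) or powder 5 (adjusted p = 0.0447). After quantile normalization Zfp365 was at 0.059 and called (adjusted p = 0.00139, limma). Zfp280d had a difference of -0.011 ± 0.0022 (adjusted p = 0.012, limma), which turned to 0.0075 after quantile normalization.

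The Zfp36 genes, whose fingers of another type bind AU-rich elements in messenger RNA and speed its decay, were not called. Zfp36l2 read 9.26, 9.18, 9.15 and 9.09 under chow and 9.14, 9.17, 9.25, 9.25 and 9.19 under powder. High and low arrays occurred in both groups (-0.027 ± 0.039, adjusted p = 0.611, limma). Zfp36 and Zfp36l1 were compressed, at 0.000162 (adjusted p = 0.146) and -3.0e-05 (adjusted p = 0.801), so a change in either could not be read from these values. Either rescaling called 2 of the 3 genes higher and 0 lower. Of all 14217 genes, quantile normalization called 8329 higher and subtracted medians 12112. In limma 0 of these 3 genes had an unadjusted p under 0.05.

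Binders of GC-rich and general promoters were, on their representing probe sets, almost all compressed. Of 13, limma called 3 lower and 0 higher (5 and 0 at an unadjusted p under 0.05), namely Zfp143, which activates small nuclear RNA promoters, Zfp384 and Zfp410, which controls Chd4, with differences from -0.000344 to -0.000237. Of all genes 18.8% were called lower, and 3636 of 14217 were lower at an unadjusted p under 0.05. The direction of this list too turned, to 9 higher and 0 lower by quantile normalization and 12 and 0 by subtracted medians. Over all genes 8329 and 12112 were then higher. Zfp219 was the 1 gene of this list whose representing probe set spanned at least 0.01. On other probe sets Zfp148 was at -0.18 and Zfp260 at 0.33, as given below. Zfp219 read 8.82, 8.84, 9.24 and 8.84 under chow and 9.02, 8.98, 8.99, 9.38 and 9.02 under powder. Chow 3 and powder 4 stood well above the rest of their groups, and the difference of -0.14 ± 0.12 was not called (adjusted p = 0.377, limma). The imprint guardians Zfp57 and Zfp445 were compressed and not called (adjusted p = 0.684 and 0.0815, limma). At an unadjusted p under 0.05 the latter counted, as 1 higher of 2 genes, beside 3015 of all 14217 genes. Either rescaling called both higher, beside 8329 and 12112 of all genes.

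Different probe sets of the same Zfp gene did not always move the same way. There were 53 Zfp probe sets spanning at least 0.01, belonging to 44 genes, and when tested over all 31042 probe sets 31 of them were lower (58.5%) and 9 higher (17.0%), where 38.8% and 16.1% of all probe sets spanning at least 0.01 were called. In 7 genes several probe sets spanned that much. All 4 of Zfp91 rose, by 0.18, 0.21, 0.19 and 0.24, and both of Zfp61 fell, at -0.30 and -0.21. Probe sets of one gene may share transcript sequence and are no independent replicates of the result.

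Zfp106 and Zfp292 each had probe sets called in opposite directions. For Zfp106 another probe set read 9.35, 9.33, 9.40 and 9.36 under chow and 9.58, 9.57, 9.54, 9.49 and 9.58 under powder, opposite to the first (-0.19 ± 0.022, adjusted p = 0.00261, limma over probe sets). Zfp292, a large zinc finger protein linked in people to neurodevelopmental disorders, was represented by a compressed probe set at -0.000139. Of its 5 others, 2 spanned at least 0.01. The first of these read 8.24, 8.18, 7.97 and 8.08 under chow and 7.79, 7.89, 7.87, 7.91 and 7.95 under powder, at 0.24 ± 0.058 (adjusted p = 0.0204). The second read 7.41, 7.22, 7.44 and 7.40 under chow and 7.71, 7.49, 7.71, 7.57 and 7.54 under powder, at -0.24 ± 0.064 (adjusted p = 0.0288). Neither pair of groups of Zfp292 overlapped. For Zfp106 the groups overlapped on the first probe set and not on the other. The direction for Zfp106 and Zfp292 depends on the probe set. The second probe sets of Zfp451 (0.12, adjusted p = 0.0756) and Zfp536 (0.086, adjusted p = 0.0724) were also opposite in sign and not called.

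**Figure D4:**
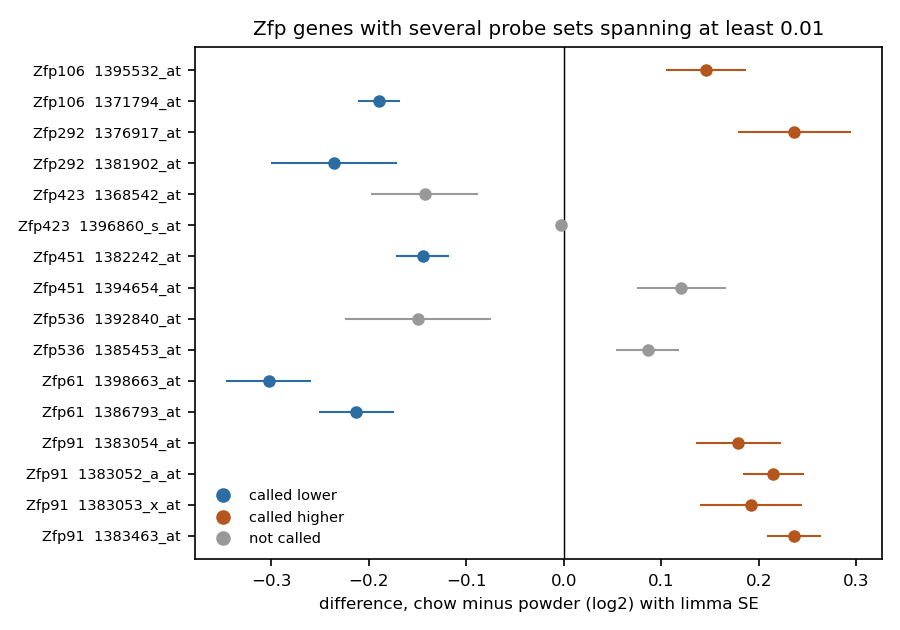
Difference between diets (horizontal axis, log2, chow minus powder, bars are limma SE) for each probe set spanning at least 0.01 of the 7 Zfp genes that had several (vertical axis), coloured by call. The 4 probe sets of Zfp91 lie right of 0 and both of Zfp61 left of it, while those of Zfp106 and Zfp292 were called on opposite sides.

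Another 7 genes spanned at least 0.01 only on probe sets that did not represent them, Zfp292 among them; the other 6, not covered by the naming rule, follow. Zfp207, which binds Bub3 on the mitotic spindle, read 8.20, 7.96, 8.03 and 8.07 under chow and 8.40, 8.39, 8.53, 8.43 and 8.31 under powder on such a probe set. The groups were apart (-0.35 ± 0.059, adjusted p = 0.00653, limma over probe sets). Zfp462, a chromatin regulator of early neural development, read 8.56, 8.60, 8.56 and 8.59 under chow and 8.83, 8.81, 8.86, 8.72 and 8.81 under powder. It was also lower on every chow array (-0.23 ± 0.027, adjusted p = 0.00274), as was Zfp148, a binder of GC-rich promoters (-0.18 ± 0.036, adjusted p = 0.0114). Zfp260 read 7.61, 7.47, 7.62 and 7.36 under chow and 7.18, 7.10, 7.23, 7.26 and 7.14 under powder, higher on every chow array (0.33 ± 0.061, adjusted p = 0.0087). Zfp68 was at 0.24 ± 0.083 and not called (adjusted p = 0.0594), and Zfp827 was called at only -0.0065.

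By construction, the genes called lower were low on the chow arrays, and the arrays differed in how far. The median deviation of the 24 lower genes from their own means was -0.12, -0.16, -0.13 and -0.067 on chow 1 to 4 and 0.088, 0.091, 0.13, 0.063 and 0.062 on powder 1 to 5. Chow 2 was the lowest and powder 3 the highest. On chow 2 and chow 4 all 24 genes lay under their own mean, and on chow 1 and chow 3 23 did. On powder 4 there were 3 and on the other powder arrays 0. These signs follow from the calls and are no further support. Over all 2414 genes spanning at least 0.01 the chow medians were -0.10 to -0.034 and the powder medians 0.030 to 0.057, on the same side in each group.

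**Figure D5:**
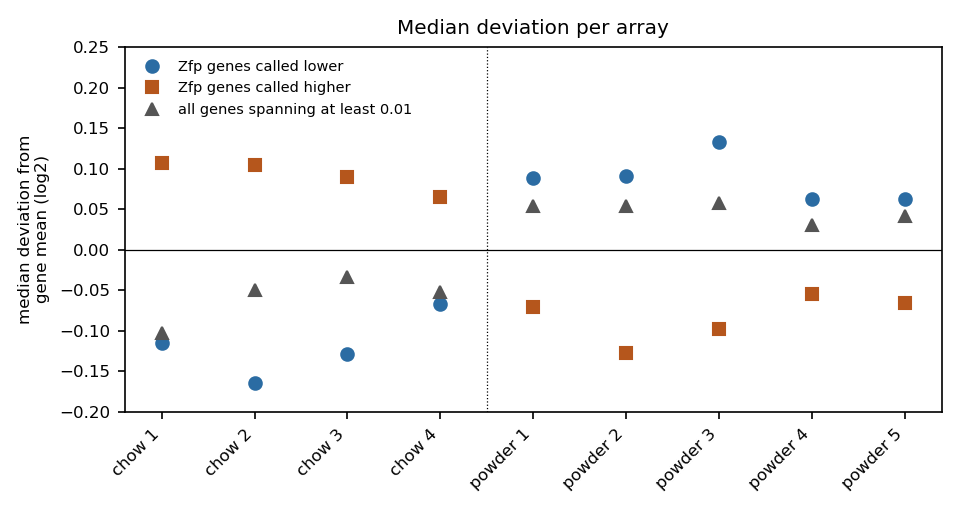
Median deviation from each gene's own mean (vertical axis, log2) on the 4 chow and 5 powder arrays (horizontal axis) for the 24 Zfp genes called lower, the 4 called higher and all 2414 genes spanning at least 0.01. The lower genes are below 0 on each chow array and above 0 on each powder array, the higher genes the reverse, and all genes follow the direction of the lower ones.

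Over the whole family, compressed genes included, 72 of 220 (32.7%) were called lower and 20 (9.09%) higher, against 18.8% and 14.2% of all genes (32.9% in either direction). This split depended on scaling. Quantile normalization gave 146 higher against 23 lower, and subtracting array medians gave 187 against 24. Over all 14217 genes these rescalings gave 8329 higher against 1000 lower, and 12112 against 1133. Of the 183 compressed genes, 48 were called lower (26.2%) and 16 higher (8.74%), where 14.4% and 15.2% of all compressed genes were. The largest of the 183 differences was that of Zfp532, at -0.0035. For the 37 genes of larger span, quantile normalization gave 23 lower against 5 higher and subtracted medians 24 against 5, and 23 of the 24 lower genes kept their call under each.

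Many Zfp genes lie beside each other in the genome, as families made by duplication do. By gene order in GRCr8, 52 of the 220 lay in 21 runs of neighbouring Zfp genes. Of these 52, 17 were called lower (32.7%) and 4 higher. Of the 168 others, 55 were lower (32.7%) and 16 higher, beside 18.8% and 14.2% of all genes. Only 3 of the 52 spanned at least 0.01. Most calls in the runs were therefore of compressed genes, whose counts turned with scaling. The run Zfp26, Zfp426, Zfp266 and Zfp846 had all 4 genes called lower, at -0.17, -0.000304, -0.11 and -0.000267. The run Zfp398, Zfp282, Zfp212 and Zfp956 had 0 called lower by limma and 1 higher. Transcripts of such neighbours, where the finger sequences are near-identical, can bind the same probes, and cross-hybridisation was not tested.

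The co-repressors through which KRAB domains act were measured beside the family. Trim28 was compressed and not called (6.0e-05, adjusted p = 0.538, limma), and Setdb1 was called at a compressed -0.000181 (adjusted p = 0.0339). Of 19 genes of this machinery 3 spanned at least 0.01, of which 2 were lower, where 40.2% of all genes of that span were. With the compressed genes the counts were 11 lower and 1 higher, beside 18.8% and 14.2% of all genes. Cbx1, a heterochromatin protein, read 8.28, 8.25, 8.37 and 8.12 under chow and 8.52, 8.54, 8.69, 8.66 and 8.49 under powder (-0.32 ± 0.063, adjusted p = 0.0103, limma). The methyltransferase Ehmt1 was at -0.18 ± 0.034 (adjusted p = 0.00927), with groups apart as for Cbx1. Quantile normalization turned the list to 14 higher against 2 lower, and subtracted medians to 15 against 2. All genes turned likewise, to 8329 against 1000 and 12112 against 1133. Of 18 genes of NuRD and histone deacetylase complexes 3 spanned at least 0.01, and Chd3 (-0.14) and Ncor1 (-0.084) were lower. With 6 compressed genes limma called 8 lower and 0 higher (12 and 0 at an unadjusted p under 0.05), and quantile normalization turned this to 15 higher against 1 lower, subtracted medians to 15 against 3. Of 21 partners of the Zfp36 proteins in messenger RNA decay 6 spanned at least 0.01, and 4 were lower (a count of 4 after either rescaling too), namely the exonuclease Xrn1 (-0.27), Pan3 (-0.21), the CCR4-NOT subunit Cnot2 (-0.10) and Pan2 (-0.084). With 7 compressed genes limma called 11 lower and 0 higher (13 and 0 unadjusted), turned to 14 higher against 4 lower by quantile normalization and 15 against 4 by subtracted medians. At an unadjusted p under 0.05, 3636 of all 14217 genes were lower and 3015 higher.

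Zinc finger genes under other symbols gave these counts among those spanning at least 0.01, where 40.2% of all genes were called lower and 9.03% higher. Of 10 BTB zinc finger genes 8 were lower and 1 higher, with Zbtb38 (-0.24), Zbtb11 (-0.21), Zbtb1 (-0.18) and Zbtb40 (-0.016) among the lower; quantile normalization gave 7 lower and 2 higher. Of 3 SCAN or KRAB genes with other names 2 were lower and 0 higher by limma (2 and 0 unadjusted), Zkscan1 (-0.27) and Zscan26 (-0.27). At an unadjusted p under 0.05, 1184 of all 2414 genes of that span were lower and 302 higher. Among 11 Kruppel-like, Sp, Egr and Zic factors 2 were lower, Klf4 (-0.31) and Klf15 (-0.092), 1 was higher, Zic2 (0.13), and 8 were not called. The CCCH genes Zc3h7a (-0.39) and Zc3h11a (-0.38) were lower and Zc3h15 (0.28) higher. With compressed genes included, all 4 of these lists had more genes higher than lower after either rescaling. So had all genes, at 8329 against 1000 and 12112 against 1133. No difference between these lists and the Zfp genes was tested.

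Array medians were 7.391 to 7.396 under chow and 7.398 to 7.402 under powder, close together but without overlap. Subtracting them moved the median difference over all genes from -7.2e-06 to 0.0066. The largest difference of a compressed Zfp gene was -0.0035. Correlations between arrays over all rat probe sets were 0.991 to 0.999. Of 14 thalamic relay neuron markers 13 spanned at least 0.01, and limma called 0 (4 lower at an unadjusted p under 0.05). Over all 2414 genes of that span, 1184 were lower unadjusted. Of the 13, 11 had a negative difference, and the median was -0.21, beside -0.17 for the 37 Zfp genes. Their summed level, as log2, was 13.58 to 14.12 under chow and 14.02 to 14.14 under powder, and that of 6 striatal markers 10.40 to 11.76 and 10.42 to 10.61. The extremes, 13.58 and 11.76, were both on chow 1. Without chow 1, the Zfp genes spanning at least 0.01 were 21 lower and 4 higher. Over each array left out in turn the counts were 21 to 24 lower and 3 to 5 higher. Leaving out any array also lowers the residual degrees of freedom, so these counts do not measure the share of chow 1. In bulk tissue, fewer cells of a type and less RNA per cell cannot be told apart. The summed level of 6 cortical or hippocampal markers was 10.4 to 10.7 under chow and 10.7 to 10.8 under powder, without overlap. Of its 3 markers spanning at least 0.01, Prox1 was lower (-0.35, adjusted p = 0.0112, limma), while Slc17a7 (0.094) and Wfs1 (0.095) were not called, and 2 compressed markers were called higher. Astrocyte markers were at 14.32 to 14.41 and 14.38 to 14.41, and oligodendrocyte markers at 15.04 to 15.11 and 15.07 to 15.17. Microglial markers were at 10.97 to 11.20 and 11.02 to 11.09, and endothelial ones at 11.21 to 11.31 and 11.28 to 11.35. The summed levels of other lists varied more between arrays without separating the diets. Markers of hypothalamus and habenula were at 11.13 to 12.27 and 10.29 to 12.28, those of the reticular nucleus and interneurons at 11.97 to 12.57, highest on chow 1, and 11.93 to 12.22. Choroid plexus markers were at 9.76 to 10.35 and 9.40 to 10.12. Meningeal markers were at 10.42 to 10.97 under chow and 10.59 to 10.77 under powder, except powder 1 at 11.50. Without powder 1 the Zfp genes spanning at least 0.01 were 22 lower and 3 higher. Single markers could separate the diets where a sum did not. Gad2 of the reticular nucleus and interneuron list was higher on every chow array (0.60, adjusted p = 0.0536, limma). Tcf7l2 of the relay neuron list (-0.26, adjusted p = 0.0808) and Aqp4 of the astrocyte list (-0.14, adjusted p = 0.0567) were lower on every chow array. None of these was called. The part of the marker levels in the Zfp differences was not tested.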

How the data were processed

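RNA from 9 thalamus samples was measured on oligonucleotide arrays; per the labels' protocols, biotin-labelled cRNA was made from 100 ng of total RNA extracted with TRIzol and RNeasy columns. The authors deposited 1 log2 value per probe set and array, from 5.37 to 14.0. That the scale is log2 was read from this range; for software, background correction, normalization and centring the sources used here name nothing. Scanner output was not used here, so probes near background could not be marked. The number of arrays limits the precision.

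Groups and replicate numbers come from the sample titles. After 57 control probe sets were left out, limma 3.58.1 in R 4.3.3 (lmFit, eBayes, no covariate) was run over 14217 genes and, separately, over 31042 probe sets, with values as deposited, and was tested on simulated data. Of the probe sets, 20826 had 1 symbol in the platform annotation, 436 several and 9780 none listed. All 220 Zfp symbols were in the RefSeq gene table of GRCr8. The members, the gene lists and the limit of 0.01 were chosen with earlier results of these data known.

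Named were the 15 largest called, non-overlapping differences per direction among members spanning at least 0.01, role-list members and members with several probe sets spanning that much, the Zfp36 genes, and from the other lists up to 4 called genes each spanning at least 0.01, plus Trim28 and Setdb1. Alternatives were quantile normalization, subtracted array medians, a trended robust variance, leaving out genes under the lower quartile of mean level, the median or the most variable probe set of a gene, the label number as a block, array weights, an adjusted p under 0.1 and leaving out each array. Leaving out compressed genes, and rescaling for the role lists and the other gene lists, were added after seeing the data. Deviations from the group means of same-numbered arrays over genes spanning at least 0.01 correlated at -0.32, 0.16, -0.377 and -0.0068, so the numbers were not taken to pair the samples.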

Additional observations from a re-analysis of the deposited data

Results flagged for a closer look

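Among the 28 named Zfp genes spanning at least 0.01, 1 array stood far from the others of its group in 4 of 56 gene and group combinations; such a gap arises in about 1 in 20 groups without any cause. Zfp219 read 9.24 on chow 3, where the other chow arrays were 8.82 to 8.84, and 9.38 on powder 4, where the others were 8.98 to 9.02. Zfp800 read 7.76 on chow 2, with the others at 7.67 to 7.68, and 8.10 on powder 3, with the others at 7.87 to 7.93.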

How the results depend on the processing

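Among genes spanning at least 0.01, Zfp genes numbered 21 to 28 lower and 3 to 5 higher under every alternative run except the replicate block. With the label number as a replicate block, limma called 0 Zfp genes higher and 0 lower (25 and 73 at an unadjusted p under 0.05; among those spanning at least 0.01, 5 and 22), and 0 and 0 probe sets spanning at least 0.01 (10 and 29 unadjusted). Over all genes it called 0 higher and 11 lower (0 and 11 among those spanning at least 0.01). The 28 called genes all kept their sign there, with adjusted p from 0.0544 to 0.168. The numbers are not shown to pair the samples, and the block leaves fewer residual degrees of freedom.

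Scaling moved the compressed genes: over all Zfp genes, quantile normalization gave 146 higher against 23 lower and subtracted medians 187 against 24, and Zfp probe sets spanning at least 0.01 called higher went from 9 to 14 after quantile normalization. All genes went from 2015 higher and 2669 lower to 8329 and 1000, and 12112 and 1133. Leaving out genes under the lower quartile of mean level, which by design tested fewer genes, left 1126 higher. All genes spanning at least 0.01 called higher went from 218 to 348 after quantile normalization, 444 by the median over probe sets and 540 by the probe set of largest span. The co-repressor list had 2 higher and 6 lower by the median over probe sets, and 2 and 7 by the probe set of largest span.

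Without 1 array in turn, all Zfp genes called higher ranged from 13 (without powder 1) to 19 and lower from 57 to 67. Reversed were Zfp280d (0.0075), Zfp292 (0.019), Zfp36l1 (0.031) and Zfp36l2 (0.0054) after quantile normalization, and Zfp292 (0.0064) and Zfp36l1 (0.0065) with medians subtracted. By the median over probe sets, Zfp106 (-0.049), Zfp638 (4.5e-05) and Zfp36l2 (0.00029) reversed, and by the probe set of largest span Zfp451 (0.12). Without 1 array, Zfp36l1 ranged from -7.2e-05 to 3.8e-05 and Zfp36l2 from -0.057 to 0.00027. The cause was not tested.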
